A study of Mus musculus with 6 samples.

Results

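The genes described here are 10 genes of the endothelial and blood lineages (*Kdr*, *Flt1*, *Tek*, *Cdh5*, *Pecam1*, *Erg*, *Sox17*, *Tal1*, *Gata2* and *Spi1*), followed through chromatin accessibility in distal forelimb buds of the mouse. An accessible region (peak) was taken as belonging to a gene when its midpoint lay inside the gene or within 100 kb of its annotated start, which gave 72 of the 61954 peaks measured. ATAC-seq, in which the Tn5 transposase cuts and tags open chromatin, was performed at E11.5 on embryos of a mixed C57Bl/6 and 129 background. Distal buds of wild-type embryos gave 2 libraries, and distal buds of *Hox13*-/- embryos, which lack both *Hoxa13* and *Hoxd13*, gave 2. A library held 50000 unsorted cells from both forelimbs of 1 embryo, so cells of every type in the dissected tissue could contribute. The loss of HOX13 was constitutive, and therefore not restricted to a cell type. A further 2 libraries, of proximal buds whose genotype label reads control with a *RosaHoxa11* allele, were not analysed here.

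Blood vessels enter the limb bud early and form a plexus inside the mesenchyme that makes up most of the bud. Endothelial cells receive VEGF through the receptors encoded by *Kdr* (VEGFR2) and *Flt1* (VEGFR1), and angiopoietins through that encoded by *Tek* (TIE2). *Cdh5* (VE-cadherin) and *Pecam1* (CD31) encode proteins of endothelial junctions. *Erg*, of the ETS family, and *Sox17*, of the SOXF group, encode transcription factors of endothelial cells, *Tal1* and *Gata2* encode factors used by blood progenitors and by endothelium, and *Spi1* (PU.1) encodes a factor of myeloid and B cells. In a whole bud these cells are a minority, and fewer cells of a type cannot be told apart from less accessibility per cell.

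Only 4 of the 10 genes, *Kdr*, *Flt1*, *Tek* and *Erg*, had a peak within 1 kb of their annotated gene start (1 start per gene). Their promoters are shown because peaks near the start are where the readout bears on the genes themselves. The sequences of *Kdr*, *Tek* and *Erg* overlap a start peak. That of *Flt1* overlaps no peak, as its start peak (chr5:147725455-147725718) lies downstream in the intron. ETS factors bind around a GGAA core, and the sequences are the 250 bases upstream of the RefSeq start (GRCm38.p6), written 5′ to 3′ on the strand of the gene, with each GGAA or TTCC in capitals. They lie at chr5:75978456-75978705 on the minus strand for *Kdr*, chr5:147726012-147726261 on the minus strand for *Flt1*, chr4:94739039-94739288 on the plus strand for *Tek* and chr16:95586594-95586843 on the minus strand for *Erg*.
Kdr promoter: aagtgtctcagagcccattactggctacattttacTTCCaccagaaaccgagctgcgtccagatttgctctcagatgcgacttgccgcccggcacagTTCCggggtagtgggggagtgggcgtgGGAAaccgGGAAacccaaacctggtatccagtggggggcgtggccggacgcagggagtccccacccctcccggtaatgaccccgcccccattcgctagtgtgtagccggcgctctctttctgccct
Flt1 promoter: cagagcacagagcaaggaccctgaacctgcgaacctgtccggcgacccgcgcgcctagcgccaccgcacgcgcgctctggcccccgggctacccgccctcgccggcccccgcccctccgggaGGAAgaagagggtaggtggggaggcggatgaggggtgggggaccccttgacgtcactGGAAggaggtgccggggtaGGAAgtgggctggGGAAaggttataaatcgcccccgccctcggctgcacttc
Tek promoter: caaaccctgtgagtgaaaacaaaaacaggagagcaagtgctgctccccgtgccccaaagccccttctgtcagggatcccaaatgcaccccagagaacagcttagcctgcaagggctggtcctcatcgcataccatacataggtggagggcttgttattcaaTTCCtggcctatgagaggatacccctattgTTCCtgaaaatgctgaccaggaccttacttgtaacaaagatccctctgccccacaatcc
Erg promoter: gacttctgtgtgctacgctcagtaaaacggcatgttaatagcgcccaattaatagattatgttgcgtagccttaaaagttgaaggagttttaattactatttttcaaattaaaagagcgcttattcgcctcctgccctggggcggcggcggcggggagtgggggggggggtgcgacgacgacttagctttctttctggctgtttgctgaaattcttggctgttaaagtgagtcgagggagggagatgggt
The core was present 4 times for *Kdr*, 4 times for *Flt1*, 2 times for *Tek* and 0 times for *Erg*. Other RefSeq promoters of *Erg*, which lie inside the gene and are not shown, held the core 4 times and 2 times. Over 32851 RefSeq promoters the median was 3, and 93.4% held the core at least 1 time.

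Of the peaks whose accessibility changed, 5 are shown in the same way, on the plus strand of GRCm38, as stretches of at most 300 bases placed to hold the motif matches of the peak. They are 2 peaks upstream of *Kdr* (chr5:76055953-76056252 and chr5:76030611-76030910), 2 in *Erg* (chr16:95493409-95493708 and chr16:95585537-95585756) and 1 upstream of *Sox17* (chr1:4543991-4544290). Capitals mark a match on either strand to any of the motifs searched: CAGGAAG and CCGGAAG for ETS factors, AGATAA for GATA factors, ACAATGG for SOX factors, and CAATAAA and TCGTAAA for HOX13.
Kdr -77.6 kb: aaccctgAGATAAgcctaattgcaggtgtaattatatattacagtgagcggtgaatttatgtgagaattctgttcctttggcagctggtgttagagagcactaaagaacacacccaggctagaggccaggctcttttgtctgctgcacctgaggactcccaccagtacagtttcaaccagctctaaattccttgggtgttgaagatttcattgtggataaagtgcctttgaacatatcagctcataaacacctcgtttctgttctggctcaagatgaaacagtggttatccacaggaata
Kdr -52.3 kb: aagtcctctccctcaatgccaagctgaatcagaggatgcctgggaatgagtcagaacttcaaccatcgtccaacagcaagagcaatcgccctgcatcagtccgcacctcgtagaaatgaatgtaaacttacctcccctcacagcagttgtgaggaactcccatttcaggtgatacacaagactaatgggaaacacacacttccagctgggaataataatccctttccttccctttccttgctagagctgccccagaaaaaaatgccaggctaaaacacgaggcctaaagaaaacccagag
Erg 93.1 kb: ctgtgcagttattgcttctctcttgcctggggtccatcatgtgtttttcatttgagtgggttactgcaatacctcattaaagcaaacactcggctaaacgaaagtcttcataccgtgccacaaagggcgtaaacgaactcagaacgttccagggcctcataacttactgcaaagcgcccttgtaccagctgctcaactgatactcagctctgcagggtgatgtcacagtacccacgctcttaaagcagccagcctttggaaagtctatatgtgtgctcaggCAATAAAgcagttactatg
Erg 0.9 kb: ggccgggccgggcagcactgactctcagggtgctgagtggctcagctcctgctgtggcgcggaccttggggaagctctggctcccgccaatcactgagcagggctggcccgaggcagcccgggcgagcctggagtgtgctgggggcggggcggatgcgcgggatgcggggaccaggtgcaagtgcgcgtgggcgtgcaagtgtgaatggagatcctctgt
Sox17 -46.8 kb: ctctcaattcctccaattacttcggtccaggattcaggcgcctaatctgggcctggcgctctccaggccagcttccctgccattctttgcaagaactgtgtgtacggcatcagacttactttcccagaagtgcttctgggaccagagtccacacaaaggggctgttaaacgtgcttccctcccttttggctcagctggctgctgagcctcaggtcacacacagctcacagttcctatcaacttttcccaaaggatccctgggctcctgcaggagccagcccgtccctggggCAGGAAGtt
The first *Kdr* peak held AGATAA, the *Erg* peak at 93.1 kb held CAATAAA and the *Sox17* peak held CAGGAAG, whereas none of these letters was found in the *Kdr* peak at -52.3 kb or the *Erg* peak at 0.9 kb. Over all whole peaks, 6.07% held AGATAA, 6.43% CAATAAA and 13.3% CAGGAAG. Of the changed peaks not shown, that of *Erg* at -3.1 kb held CAATAAA. Those of *Erg* at -67.8 kb, *Tal1* at 6.9 kb and *Gata2* at -79.2 kb held no match.

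Accessibility is given as the rLog value that the authors deposited for each peak and library, a log2 scale on which a difference of 1 is a fold change of 2. A peak was called changed at an adjusted p under 0.05 in limma (Benjamini-Hochberg over all peaks). The standard error (SE) of a peak followed its mean signal, and the spread between its own replicates had no weight. By this rule 9 of the 72 peaks (12.5%) changed in *Hox13*-/- buds, against 19.7% of all peaks. Of these, 6 were lower (8.31% of all peaks were lower) and 3 were higher (11.4% of all peaks were higher). When each library was centred on its median, 9 of the 72 were lower and 3 higher, and the split over all peaks turned from 5146 lower and 7040 higher to 6811 lower and 6017 higher. None of the 72 passed a fold change of 2 as well, a size reached by 0.537% of all peaks. At an unadjusted p under 0.05, 21 of the 72 differed (29.2%), beside 31.8% of all peaks.

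The 9 changed peaks lay around 5 genes. *Kdr* had 2 higher peaks, *Erg* had 3 lower and 1 higher, and *Tal1*, *Gata2* and *Sox17* had 1 lower peak each, whereas no peak around *Flt1*, *Tek*, *Cdh5*, *Pecam1* or *Spi1* passed the test. The count depended on single libraries: without *Hox13*-/- replicate 2 it was 3 lower and 5 higher, and without *Hox13*-/- replicate 1 it was 4 lower and 1 higher. Over all peaks the same settings gave 2865 lower and 4995 higher, and 3112 lower and 4863 higher. The median difference over the 72 peaks, *Hox13*-/- minus wild type, was 0.0018 on the log2 scale, beside -0.0052 over all peaks. The differences ran from -0.65 to 0.58.

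**Figure D1:**
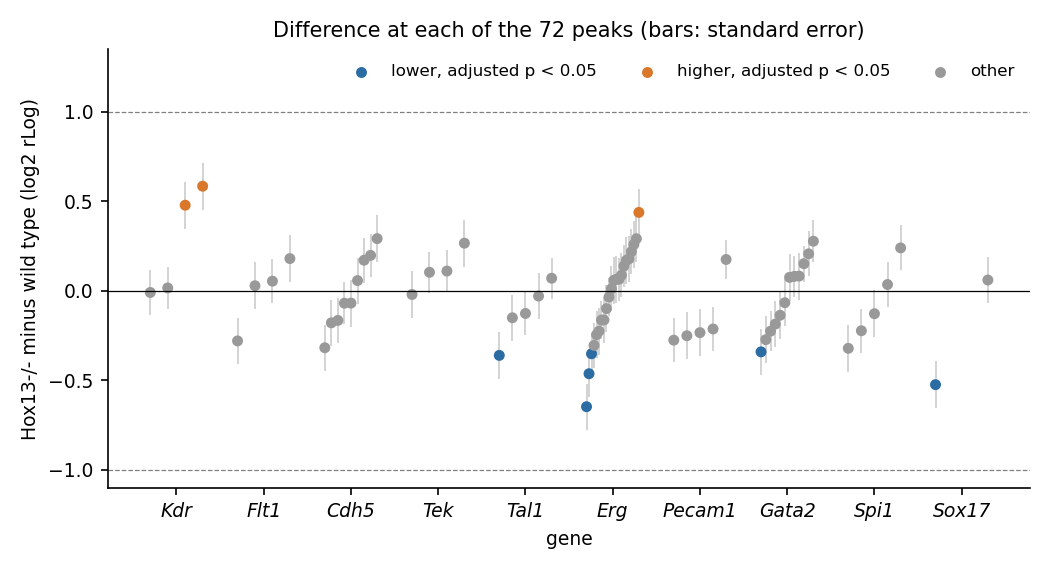
Difference in rLog (log2 scale, *Hox13*-/- minus wild type, vertical axis) at each of the 72 peaks, grouped by gene along the horizontal axis and ordered by size within a gene. Bars are the standard error from limma, dashed lines mark a fold change of 2, and colours mark an adjusted p under 0.05. All 72 points lie inside the dashed lines, between -0.65 and 0.58, with 6 coloured as lower and 3 as higher.

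Of the receptor genes, *Kdr* (chr5:75932827-75978458, minus strand) had 4 peaks, and both of those upstream of the gene were more accessible in *Hox13*-/- buds. At the intergenic peak at -77.6 kb (chr5:76055951-76056254), rLog was 4.42 and 4.40 in wild-type replicates 1 and 2 and 4.904 and 5.09 in *Hox13*-/- replicates 1 and 2. Both *Hox13*-/- libraries lay above both wild-type libraries, as they did at 29.7% of all peaks. The gap was larger than the distance between libraries of a genotype. The difference was 0.58 (SE 0.13) with a limma adjusted p of 0.00015, and it passed the test with any 1 of the libraries left out. At -52.3 kb (chr5:76030599-76030922) the values were 4.49 and 4.43 in wild type, against 5.04 and 4.84 in *Hox13*-/-, again without overlap. The difference was 0.48 (SE 0.13, adjusted p = 0.0029), and it missed the threshold without *Hox13*-/- replicate 1 (0.38, adjusted p = 0.100). Both peaks were on the peak lists of the pair of *Hox13*-/- libraries but on no wild-type list. Their nearest protein-coding start is that of *Kdr*.

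The peak over the *Kdr* start itself (chr5:75978066-75978698, with its midpoint in an exon) had the highest rLog of the 4 and did not pass the test. It measured 6.67 and 6.71 in wild type, against 6.75 and 6.62 in *Hox13*-/-, so that the wild-type libraries lay between the *Hox13*-/- libraries. The difference was -0.01, with a 95% interval of -0.26 to 0.24. The intronic peak at 8.3 kb measured 3.45 and 3.37 in wild type, against 3.54 and 3.32 in *Hox13*-/-, a difference of 0.02. The upstream and start peaks of *Kdr* thus had different results, although the difference between them was not itself tested.

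*Flt1* (chr5:147561604-147726011, minus strand), whose product binds VEGF and limits its supply to VEGFR2, had 4 peaks and none that changed. The intronic peak 0.4 kb from its start (chr5:147725455-147725718) measured 4.59 and 4.29 in wild type, against 4.74 and 4.51 in *Hox13*-/-. The libraries of the genotypes overlapped, and the difference of 0.18 had a 95% interval of -0.08 to 0.44 (limma adjusted p = 0.343). This peak was on both *Hox13*-/- peak lists and on no wild-type list, although its rLog values overlapped. The *Flt1* peak with the highest mean, in an exon at 80.6 kb, measured 4.88 and 4.96 in wild type, against 5.00 and 4.91 in *Hox13*-/-, a difference of 0.03. The largest difference of the 4 was negative, at the intergenic peak at -52.7 kb, which is named after its values were seen. It measured 4.68 and 4.72 in wild type, against 4.57 and 4.26 in *Hox13*-/-, without overlap (difference -0.28, adjusted p = 0.117).

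*Tek* (chr4:94739289-94874976, plus strand) had 1 peak just upstream of its start (chr4:94738846-94739229) and 3 intronic peaks. The start peak measured 5.82 and 5.59 in wild type, against 5.81 and 5.56 in *Hox13*-/-. The distance between replicates of a genotype was larger than that between genotypes, and the difference was -0.02 (95% interval -0.27 to 0.23). At the intronic peak at 26.1 kb both *Hox13*-/- libraries were above both wild-type libraries, with 4.52 and 4.56 in wild type, against 4.74 and 4.87 in *Hox13*-/-, but the difference of 0.27 did not pass the test (adjusted p = 0.138). The other 2 peaks lay at 124 and 125 kb, where the start of *Eqtn* is nearer than that of *Tek*.

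**Figure D2:**
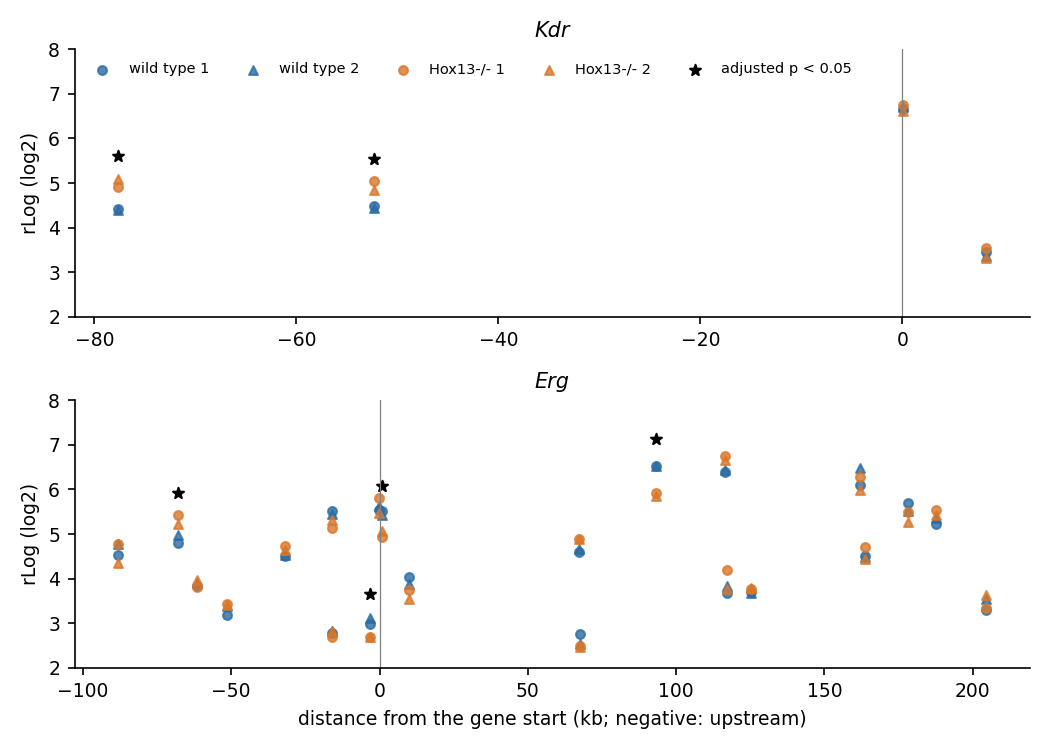
rLog (log2 scale, vertical axis) of every peak of *Kdr* (top) and *Erg* (bottom) in the 4 libraries, against the distance of its midpoint from the gene start in kb, with positive values in the direction of transcription. Stars mark an adjusted p under 0.05 and the vertical line the gene start. At *Kdr* the *Hox13*-/- points lie above the wild-type points at -77.6 and -52.3 kb and overlap them at the start, and at *Erg* they lie below at 93.1 kb and above at -67.8 kb.

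Of the junction genes, *Cdh5* (chr8:104101625-104144511, plus strand) had 9 peaks, 8 of them upstream and none within 1 kb of its start or inside the gene. Its peak of highest mean rLog, at -78.5 kb, measured 7.49 and 7.28 in wild type, against 7.30 and 7.14 in *Hox13*-/-. The ranges overlapped, and the difference was -0.16 (95% interval -0.41 to 0.08). The peak nearest to the start, at -1.7 kb, measured 3.22 and 3.22 in wild type, against 3.31 and 3.53 in *Hox13*-/-, a difference of 0.20 that did not pass the test (adjusted p = 0.236). At -50.3 kb a peak on both *Hox13*-/- lists and on no wild-type list measured 5.09 and 5.10 in wild type, against 5.42 and 5.36 in *Hox13*-/-. These groups did not overlap, but the difference of 0.29 missed the threshold (adjusted p = 0.099). The largest difference of the 9 had the opposite sign, at 69.2 kb in an exon of *Bean1* and near the start of that gene. It measured 6.72 and 6.77 in wild type, against 6.46 and 6.40 in *Hox13*-/-, also without overlap (difference -0.32, adjusted p = 0.061).

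*Pecam1* (chr11:106654217-106750628, minus strand) had 5 peaks, of which 3 had the start of *Polg2* or *Ddx5* as the nearest. The highest, at -28.8 kb and over the start of *Polg2*, measured 7.75 and 7.97 in wild type, against 7.47 and 7.69 in *Hox13*-/-. The *Hox13*-/- libraries were both lower, but the difference of -0.28 did not pass the test (adjusted p = 0.101). The single peak whose nearest start is that of *Pecam1*, in an intron at 13.1 kb, measured 2.64 and 2.71 in wild type, against 3.01 and 2.69 in *Hox13*-/-. The groups overlapped there, with a difference of 0.18 (adjusted p = 0.253).

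Of the transcription factor genes, *Erg* (chr16:95359169-95586593, minus strand) had the most peaks, 22, and they moved in both directions. The intronic peak at 93.1 kb (chr16:95493367-95493708) had the smallest adjusted p of the 72. It measured 6.52 and 6.53 in wild type, against 5.91 and 5.85 in *Hox13*-/-, with both *Hox13*-/- libraries well below both wild-type libraries. The difference was -0.65 (SE 0.13), which is 0.639 of the wild-type level, with a limma adjusted p of 1.4e-05, and it passed the test with any 1 of the libraries left out. This peak was in the peak lists of all 4 libraries.

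A second lower *Erg* peak lay in an intron at 0.9 kb from the start (chr16:95585537-95585756), with 5.51 and 5.43 in wild type, against 4.94 and 5.08 in *Hox13*-/-. Its difference was -0.46 (SE 0.13, adjusted p = 0.0042), but it missed the threshold without wild-type replicate 1 (adjusted p = 0.059), without *Hox13*-/- replicate 1 (adjusted p = 0.087) and after a correction for GC content (-0.33, adjusted p = 0.066). The peak on the other side of the start, at -0.3 kb (chr16:95586736-95587080), measured 5.54 and 5.62 in wild type, against 5.80 and 5.48 in *Hox13*-/-. There the libraries overlapped, and the difference was 0.06 (95% interval -0.20 to 0.31).

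Another 2 *Erg* peaks passed the test and are named after their values were seen. At -3.1 kb (chr16:95589603-95589720), a peak of low signal measured 2.98 and 3.11 in wild type, against 2.70 and 2.69 in *Hox13*-/- (difference -0.35, adjusted p = 0.011). At -67.8 kb (chr16:95654232-95654595), where the nearest start is that of *Ets2*, a related ETS gene, the values were 4.80 and 4.97 in wild type, against 5.43 and 5.22 in *Hox13*-/- (difference 0.44, adjusted p = 0.0073). The *Erg* peak with the highest mean, in an intron at 116.5 kb, measured 6.39 and 6.44 in wild type, against 6.75 and 6.66 in *Hox13*-/-. Its groups did not overlap, but the difference of 0.29 missed the threshold (adjusted p = 0.090). The intronic peaks at 93.1 and 116.5 kb thus had differences of opposite sign, and of the pair the former passed the test.

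*Sox17* (chr1:4490931-4497354, minus strand) had 2 peaks, both upstream with its own start as the nearest and both listed in all 4 libraries. The peak at -46.8 kb (chr1:4543901-4544380) was lower in *Hox13*-/- buds. It measured 6.06 and 6.18 in wild type, against 5.63 and 5.56 in *Hox13*-/-, without overlap. The difference was -0.52 (SE 0.13, limma adjusted p = 0.00077), and it passed the test whichever library was left out. The peak at -74.4 kb (chr1:4571297-4572164) measured 7.25 and 6.94 in wild type, against 7.20 and 7.11 in *Hox13*-/-, so that the *Hox13*-/- libraries lay between the wild-type libraries (difference 0.06, 95% interval -0.19 to 0.31).

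*Tal1* (chr4:115056426-115071755, plus strand) had 5 peaks, but only 1 of them had its own start as the nearest. This exonic peak at 6.9 kb (chr4:115063113-115063497) measured 5.53 and 5.14 in wild type, against 4.94 and 5.01 in *Hox13*-/-, so that wild-type replicate 1 stood above the other 3 libraries. The difference of -0.36 passed the test (SE 0.13, adjusted p = 0.034) but not without wild-type replicate 1 (-0.16, adjusted p = 0.573), without *Hox13*-/- replicate 1 (adjusted p = 0.183), without *Hox13*-/- replicate 2 (adjusted p = 0.085) or after the GC correction (-0.22, adjusted p = 0.265). The peak has a GC content of 74.0%, beside a median of 52.1% over all peaks. The peak of highest mean rLog in the *Tal1* window, over the start of its neighbour *Stil*, measured 8.28 and 8.36 in wild type, against 8.26 and 8.13 in *Hox13*-/- (difference -0.13, 95% interval -0.36 to 0.11).

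*Gata2* (chr6:88193891-88207032, plus strand) had 12 peaks. The only one that passed the test, at -79.2 kb (chr6:88114560-88114828), has the start of *Rpn1* as the nearest and measured 4.35 and 4.76 in wild type, against 4.24 and 4.20 in *Hox13*-/-. Wild-type replicate 2 stood above the other libraries, and the difference of -0.34 (SE 0.13, adjusted p = 0.046) was -0.14 without it (adjusted p = 0.625). It also missed the threshold without *Hox13*-/- replicate 1 (adjusted p = 0.121) and without *Hox13*-/- replicate 2 (adjusted p = 0.182). At -4.2 kb a peak on both wild-type lists and on no *Hox13*-/- list measured 4.66 and 4.68 in wild type, against 4.45 and 4.34 in *Hox13*-/-. The groups did not overlap, but the difference of -0.27 did not pass the test (adjusted p = 0.128). An exonic peak at 4.8 kb (chr6:88198565-88198785) overlapped another RefSeq promoter of *Gata2*, inside the gene (chr6:88198414-88198713). It measured 4.44 and 4.53 in wild type, against 4.26 and 4.58 in *Hox13*-/-, with overlap (difference -0.07, adjusted p = 0.761).

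*Spi1* (chr2:91082390-91115756, plus strand) had 5 peaks. Its highest, at -11.9 kb and over the start of *Slc39a13*, measured 7.92 and 8.20 in wild type, against 7.87 and 7.80 in *Hox13*-/- (difference -0.22, adjusted p = 0.198). This difference was -0.37 without wild-type replicate 1 and -0.08 without wild-type replicate 2. An exonic peak at 32.9 kb, at the end of the gene, measured 5.81 and 5.90 in wild type, against 5.67 and 5.39 in *Hox13*-/-. Both *Hox13*-/- libraries were lower, and the difference of -0.32 missed the threshold (adjusted p = 0.063).

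To give each gene 1 level per library, the rLog values of its peaks were averaged and the same was done for 18788 protein-coding genes, of which 23.2% changed (16.8% lower and 6.36% higher) in limma at an adjusted p under 0.05. *Kdr* was the 1 gene of the 10 that was higher. Its mean was 4.76 and 4.73 in wild type, against 5.06 and 4.97 in *Hox13*-/-, a difference of 0.27 (SE 0.04, adjusted p = 0.012). Without wild-type replicate 1 the difference was 0.28 (adjusted p = 0.0504) and without wild-type replicate 2 it was 0.25 (adjusted p = 0.054). Within 50 kb of the start, where the upstream peaks are left out, it was 0.004. *Sox17* was the 1 gene that was lower, with 6.65 and 6.56 in wild type, against 6.42 and 6.34 in *Hox13*-/-. Its difference of -0.23 (SE 0.05, adjusted p = 0.027) missed the threshold without wild-type replicate 1 (adjusted p = 0.098), wild-type replicate 2 (adjusted p = 0.054) or *Hox13*-/- replicate 2 (adjusted p = 0.074).

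The other 8 gene means did not pass the test. *Tek* measured 4.19 and 4.16 in wild type, against 4.31 and 4.27 in *Hox13*-/-, without overlap (difference 0.12, 95% interval 0.02 to 0.21, adjusted p = 0.074). *Pecam1* measured 5.61 and 5.74 in wild type, against 5.52 and 5.51 in *Hox13*-/-, also without overlap (difference -0.16, adjusted p = 0.056). It passed the test with the libraries centred on their medians (-0.19, adjusted p = 0.024), while its own intronic peak alone gave 0.18. Leaving out 1 library at a time gave -0.09 to -0.23 for *Pecam1*. *Tal1* measured 5.59 and 5.46 in wild type, against 5.45 and 5.36 in *Hox13*-/- (difference -0.12, adjusted p = 0.135), and leaving out 1 library at a time gave -0.06 to -0.18.

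The means of the remaining 5 genes overlapped between the genotypes. The share of all genes whose means did not overlap was not counted. Among all single peaks, both *Hox13*-/- libraries lay above both wild-type libraries at 29.7% and below them at 29.6%. *Flt1* measured 4.41 and 4.40 in wild type, against 4.49 and 4.31 in *Hox13*-/-, and *Cdh5* 5.02 and 4.95 in wild type, against 4.97 and 4.99 in *Hox13*-/-. *Erg* measured 4.53 and 4.59 in wild type, against 4.57 and 4.49 in *Hox13*-/-, its changed peaks lying in both directions. *Gata2* measured 4.11 and 4.20 in wild type, against 4.16 and 4.10 in *Hox13*-/-, and *Spi1* 5.93 and 5.94 in wild type, against 5.93 and 5.78 in *Hox13*-/-. Their differences ran from -0.08 for *Spi1* to -0.004 for *Flt1*, and that of *Spi1* was -0.0009 without *Hox13*-/- replicate 2 and -0.16 without *Hox13*-/- replicate 1. The median over the 10 genes was -0.03, beside -0.06 over all genes.

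**Figure D3:**
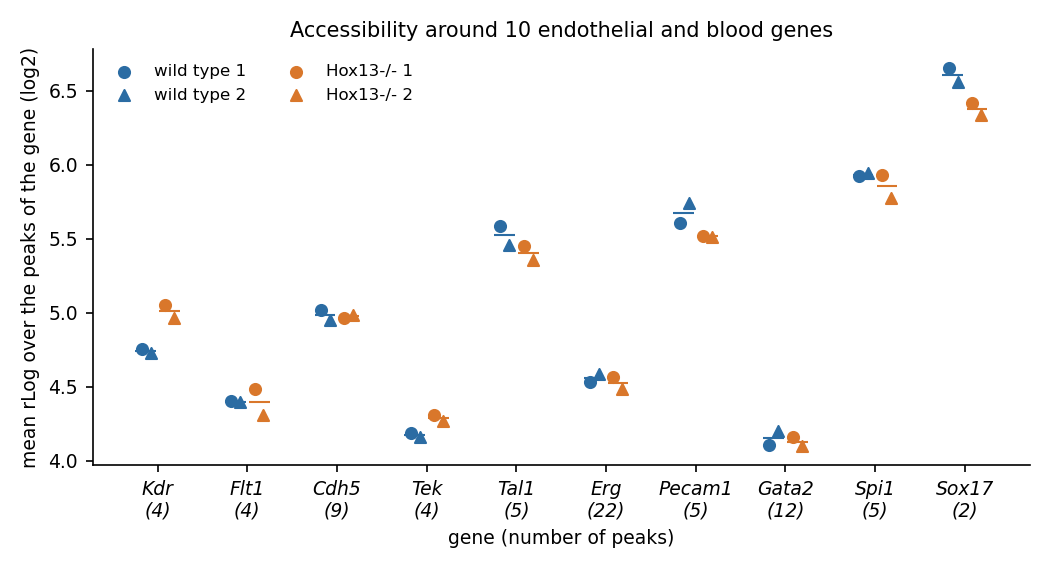
Mean rLog (log2 scale, vertical axis) over the peaks of each of the 10 genes, with the number of peaks in brackets, in the 2 wild-type and 2 *Hox13*-/- libraries. Points are libraries and short lines the mean of a genotype. The *Hox13*-/- points of *Kdr* lie above the wild-type points (5.06 and 4.97 against 4.76 and 4.73), those of *Sox17* lie below (6.42 and 6.34 against 6.65 and 6.56), and those of *Flt1*, *Cdh5*, *Erg*, *Gata2* and *Spi1* overlap.

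Of the 72 peaks, 9 lay in exons, 29 in introns and 34 between genes. The nearest protein-coding start was that of the gene itself for 42 peaks and that of another gene for 30, and 8 of the latter were within 1 kb of that other start (*Bean1*, *Cmpk1* with 2, *Stil*, *Polg2*, *Ddx5*, *Psmc3* and *Slc39a13*). These 8 promoters of neighbours had a median difference of -0.18, with 0 called by limma and 2 of the 8 at an unadjusted p under 0.05. Over all 15031 peaks within 1 kb of a gene start the median was -0.12, and 21.6% had an unadjusted p under 0.05. At their own starts, 1 of the 5 peaks of *Kdr*, *Flt1*, *Tek* and *Erg* was called, the lower one of *Erg*, beside 9.53% of all start peaks. Both *Hox13*-/- libraries lay below both wild-type libraries at this 1 of the 5 and above them at none, beside 46.1% and 6.94% of all start peaks. The starts of neighbours include the highest peaks read for *Tal1*, *Pecam1* and *Spi1*. Among the 42 peaks nearest to their own gene, 5 were lower and 2 higher, and among the other 30, 1 was lower and 1 higher. At the edge of the 100 kb window, the outermost peaks that lay outside their gene were at -98.9 kb from *Tal1* and -88.2 kb from *Erg* (differences -0.03 and -0.10), peaks inside a gene being members at any distance, and the first peaks beyond it were at 100.6 kb from *Spi1* and -108.8 kb from *Tal1* (differences -0.16 and -0.06).

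In length and GC content the 72 peaks were close to the table as a whole. Their median length was 248.5 bp, beside 250 bp, and their median GC content was 52.4%, beside 52.1%. In the peak lists of the single libraries, 23 of the 72 (31.9%) were found in all 4, as were 31.8% of all peaks. In 1 library only were 24 (33.3%), beside 34.6% of all peaks. On both *Hox13*-/- lists but no wild-type list were 11, and on both wild-type lists but no *Hox13*-/- list 2, beside 6937 and 1848 of all 61954 peaks. The mean rLog over the 72 peaks was 4.81 and 4.83 in wild type, against 4.83 and 4.76 in *Hox13*-/-, so that the genotypes overlapped. Both *Hox13*-/- libraries lay above both wild-type libraries at 19 of the 72 peaks (29.7% of all peaks) and below them at 24 (29.6% of all peaks).

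Letters of the motifs were searched in the 200 bp around each midpoint. The ETS form CAGGAAG was found in 9 of the 72 windows (12.5%) and in 8.88% of all windows, and CCGGAAG in 1 (1.39%) and 3.67%. The GATA form AGATAA was in 1 window (1.39%), beside 3.77% of all, and the SOX form ACAATGG in 3 (4.17%), beside 1.90%. A window can reach beyond a short peak. In whole peaks, ACAATGG was in 2 of the 72 (2.78%), beside 2.87% of all, and CAGGAAG in 12 (16.7%), beside 13.3%. The HOX13 form CAATAAA was in 2 (2.78%), beside 4.69%, both of them *Erg* peaks, at -3.1 kb (lower in *Hox13*-/- buds) and at 125.3 kb (not called). TCGTAAA was in none, beside 0.860% of all. The matches shown above for the changed *Kdr*, *Erg* and *Sox17* peaks lie nearer to the ends of those peaks, outside the windows. An E-box followed at 8 bases by the GATA form, a composite that TAL1 and GATA factors bind together, was in none of the 72 whole peaks and in 0.0065% of all peaks.

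Levels of different genes were set side by side at promoters, which can be done only per length, here as mean rLog minus log2 of the peak length in kb. Among 11329 genes with a peak within 1 kb of the start, that of *Kdr* stood at the 42.9th percentile, *Tek* at the 27.2nd and *Flt1* at the 5.26th. *Erg* stood at the 47.9th percentile by its peak at 0.9 kb. All 4 were thus below the median of the genes with a promoter peak, and the other 6 genes had no peak within 1 kb of the annotated gene start. Of 18 other endothelial genes 7 had a promoter peak, with percentiles from 1.32 for *Aplnr* to 27.3 for *Ramp2* (median 13.0). Of 14 other blood genes 3 had one (median percentile 22.7), as did 6 of 8 limb mesenchyme genes (median percentile 32.5). Of 13 myeloid and macrophage genes 2 had one, *Cebpa* at the 50.5th percentile and *Irf8* at the 62.8th, both above the median percentile of the mesenchyme list. *Kdr* and *Erg* stood above that median as well, and the median percentile of the 4 described genes was 35.0. The level thus did not rank the mesenchyme genes, of the main tissue of the bud, above those of every other cell type. It therefore cannot give the share of a cell type in the tissue.

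**Figure D4:**
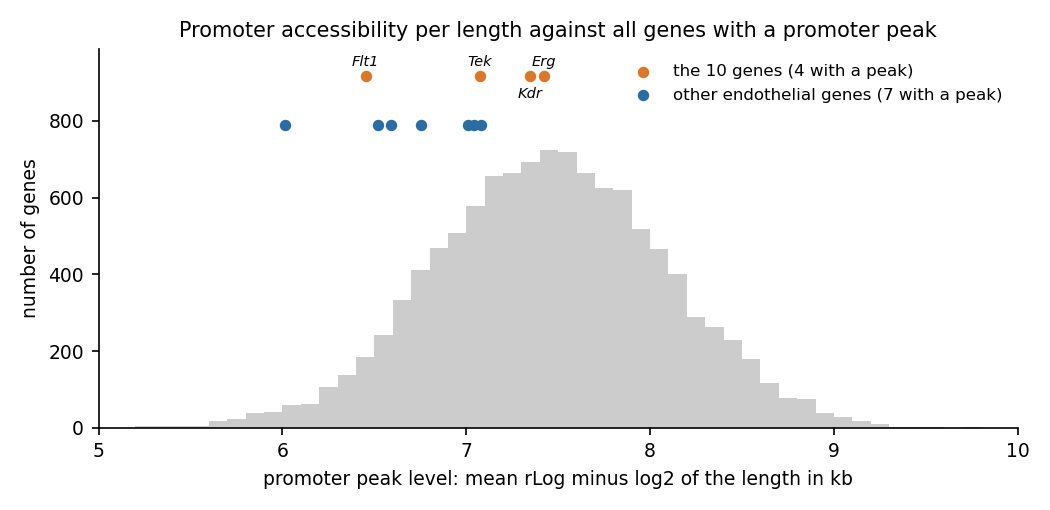
Distribution of the promoter level (mean rLog minus log2 of the peak length in kb, horizontal axis) over 11329 genes with a peak within 1 kb of the start, as the number of genes per bin (vertical axis), with 1 gene below and 14 above the range drawn. Points mark the 4 described genes and 7 other endothelial genes with such a peak, placed above the histogram at arbitrary heights. *Flt1* lies at the 5.26th percentile and *Erg* at the 47.9th, and the other endothelial genes lie between the 1.32nd and the 27.3rd.

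Further markers of the same lineages were counted in the same way. Of all peaks 8.31% were lower and 11.4% higher, and of all gene means 16.8% were lower and 6.36% higher. Around 18 other endothelial genes 209 peaks were measured, of which 10 were lower and 9 higher in limma (median difference -0.04). By gene mean, *Cldn5*, a tight junction gene, was lower (-0.18, adjusted p = 0.034), as was *Ramp2*, which encodes a partner of the adrenomedullin receptor (-0.16, adjusted p = 0.024). The promoter peaks of *Cldn5* and *Ramp2* with the highest level per length differed by -0.07 and -0.14 (limma adjusted p = 0.740 and 0.464). *Lyve1*, a hyaluronan receptor gene of lymphatic endothelium and some macrophages, was higher (0.21, adjusted p = 0.015). At their own promoters, 1 of 10 peaks passed the test, that of the apelin receptor gene *Aplnr*, with 3.21 and 3.17 in wild type, against 3.41 and 3.59 in *Hox13*-/- (difference 0.31, adjusted p = 0.0495). The median over these 10 was 0.003, beside -0.12 over all promoter peaks, of which 8.86% were lower and 0.672% higher.

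Around 11 of 14 other blood genes (*Gata1*, *Hbb-bt* and *Hbb-bh1* had no peak) there were 174 peaks, with 12 lower and 11 higher (median difference -0.06). The erythropoietin receptor gene *Epor* (-0.25, adjusted p = 0.037) and the erythroid repressor gene *Gfi1b* (-0.18, adjusted p = 0.021) were lower by gene mean. The promoter peak of *Epor* itself differed by -0.003 (limma adjusted p = 0.991). *Lmo2*, whose product bridges TAL1 and GATA factors, was higher (0.24, adjusted p = 0.011). Around 13 myeloid and macrophage genes 126 peaks were measured, with 15 lower (11.9%) and 1 higher (0.794%) and a median difference of -0.10. Of the 126, 53 lay within 1 kb of a gene start. Of all such start peaks 8.86% were lower and 0.672% higher, with a median of -0.12. *Fcgr1* (-0.21, adjusted p = 0.019) and *Aif1* (-0.13, adjusted p = 0.043) were lower by gene mean.

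Markers of the other cells of the bud moved in both directions in each list. Of 37 peaks around 8 muscle precursor genes 2 were lower and 6 higher, and *Pax3* was higher by gene mean (0.22, adjusted p = 0.018). Of 73 around 10 ectoderm genes 6 were lower and 6 higher, with *Trp63* (0.21, adjusted p = 0.026) and *Cdh1* (0.11, adjusted p = 0.0497) higher and *Esrp1* (-0.14, adjusted p = 0.037) lower. Of 74 around 7 neural crest and Schwann cell genes 6 were lower and 3 higher, with *Sox10* lower (-0.34, adjusted p = 0.010) and *Mitf* higher (0.17, adjusted p = 0.034). Of 138 around 8 limb mesenchyme genes 10 were lower and 19 higher, with *Prrx2* lower (-0.12, adjusted p = 0.048) and *Msx1* higher (0.16, adjusted p = 0.024). The promoter peak of *Twist1*, of the mesenchyme list, was lower, with 6.09 and 6.18 in wild type, against 5.92 and 5.55 in *Hox13*-/- (difference -0.40, adjusted p = 0.014). The part of changes in cell composition in the values of the 10 genes was not tested.

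**Figure D5:**
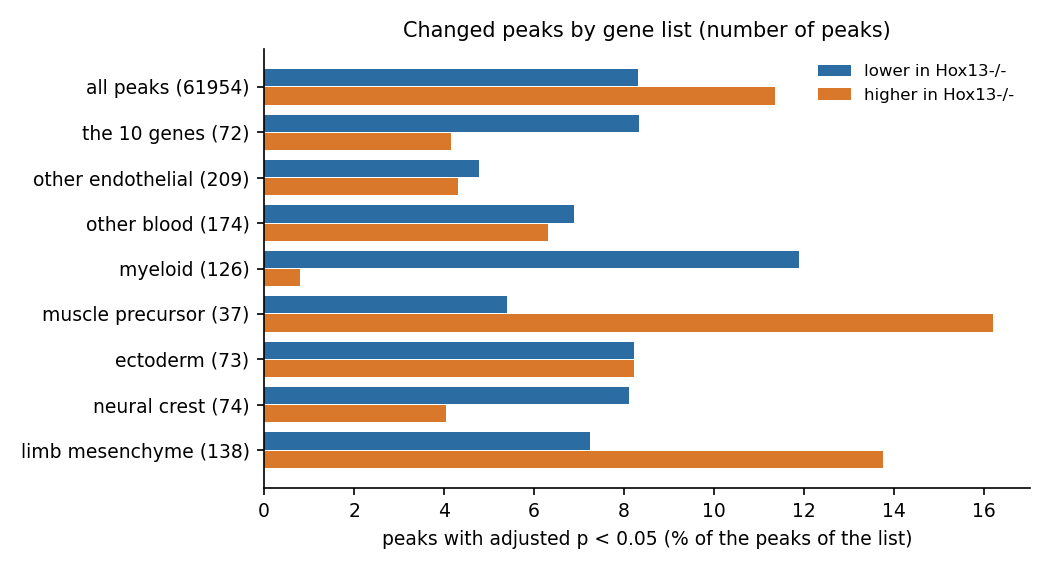
Share of peaks called lower or higher in *Hox13*-/- buds (limma adjusted p under 0.05, horizontal axis, in % of the peaks of the list) for all peaks and each gene list, with the number of peaks in brackets. The 10 genes have 8.33% lower and 4.17% higher, beside 8.31% and 11.4% of all peaks, and the myeloid list has 11.9% lower and 0.794% higher. Of all peaks within 1 kb of a gene start, to which 53 of the 126 myeloid peaks belong, 8.86% are lower and 0.672% higher.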

How the data were processed

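ATAC-seq values of 4 distal forelimb libraries were used, 2 per genotype, grouped by the genotype and tissue labels. According to the study's methods, the authors aligned reads to mm10 with bowtie2 2.3.1, called peaks in each library with MACS 2.1.1.20160309, merged them and counted reads with HOMER 4.9.1, and computed rLog values with DESeq2. The deposited rLog values are on a log2 scale and shrunk towards the mean of each peak, which understates changes of low peaks. The same table holds the authors' fold changes and p-values for the comparison, which were not used. The values hold no counts, so depth could not be read from them, and intervals come from limma alone. The study's reporting summary gives the read depth of each library, which was not used here. It also gives fewer called peaks for wild-type replicate 2 than for the other distal libraries, which bears on the peak lists.

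The genotypes were compared with limma 3.58.1 in R 4.3.3 over all 61954 peaks and over 18788 gene means (genotype as the only term, variance trend, two-sided, Benjamini-Hochberg adjustment). The fit over peaks was tested on simulated data, and the fit over gene means was not. The simulated noise was independent and normal, with the spread that limma had estimated. The simulation therefore cannot show that this spread is right for the libraries. With 2 libraries against 2, an exact permutation test cannot give a p below 0.333 (2 of 6 splits), and limma borrows its spread from the other peaks. In the fit over peaks the SE followed the mean signal alone. It was 0.13 at the *Erg* peak at 93.1 kb (wild-type standard deviation 0.011) and at the *Tal1* peak at 6.9 kb (wild-type standard deviation 0.28). Libraries are from separate embryos. Genes and starts are from GENCODE M21 on GRCm38. Promoters are from a set of RefSeq promoters, in which 6 of the 10 genes could be matched. The named peaks are the nearest within 1 kb of the start, the highest by mean rLog, and up to 2 with the smallest adjusted p under 0.05 per gene, and further peaks were named after their values were seen. Genes of the other lists are named where the gene mean or a promoter peak passed the test or the value is an end of a range. The genes, lists and rules were chosen with earlier results of these data known.

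Alternatives were other scalings (median centring, quantile, cyclic loess), no variance trend, filters on low peaks, a replicate block, leaving out each library, a GC correction, a stricter threshold, and other windows. The GC correction combined with the block was added after seeing the data. Replicate numbers 1 and 2 recur in both genotypes, but same-numbered libraries did not deviate together (r = -0.011 over peaks).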

Additional observations from a re-analysis of the deposited data

How the results depend on the processing

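Over 4 scalings and fits with all libraries and peaks (median centring, quantile, cyclic loess, no variance trend), 6 to 9 of the 72 peaks were lower and 3 higher, and the *Kdr* and *Sox17* gene means kept their calls. With the replicate number as a block, 6 peaks were lower and 3 higher, and 2 genes were lower, *Pecam1* joining *Sox17* (adjusted p = 0.035). The numbers are only names here. Requiring a fold change of 2 left 0 lower and 0 higher peaks, and an adjusted p under 0.01 left 3 lower and 3 higher. The upper 75% of peaks by signal (55 of the 72) gave 2 lower genes and a median difference of -0.066, and the upper 50% (33 of the 72) gave 1 higher peak, 2 lower genes, 0 higher genes and a median of -0.15. Median centring gave 2 lower genes. A 50 kb window gave 0 higher peaks and 0 higher genes, and peaks nearest to their own gene gave 0 genes in either direction, with unchanged differences for *Kdr* (0.27, adjusted p = 0.0501) and *Sox17* (-0.23, adjusted p = 0.131). Leaving out 1 library at a time gave 3 to 4 lower and 1 to 5 higher peaks and 0 to 1 lower and 0 to 1 higher genes. The single library left in a group is then assumed to vary like the others. The remaining values are those of differences whose sign turned. In the upper 50%, where each of these genes has 1 peak left, *Kdr* gave -0.0087, *Flt1* 0.029 and *Tek* -0.020. In the 50 kb window *Flt1* gave 0.088 and *Cdh5* 0.065, with peaks nearest to their own gene *Cdh5* gave 0.030 and *Pecam1* 0.18 (1 peak), and by any transcript start *Flt1* gave 0.012. The GC correction gave 0.0079 for *Gata2*, 0.095 for the *Kdr* start peak and -0.035 for the *Flt1* peak at 80.6 kb, the same with the block. Median centring gave -0.0055, quantile scaling -0.0098 and cyclic loess -0.016 for that *Flt1* peak, and cyclic loess gave 0.026 for the *Kdr* start peak and 0.0097 for the *Tal1* peak at -56.4 kb. Without 1 library, the gene means ran from -0.092 to 0.085 for *Flt1*, -0.044 to 0.027 for *Cdh5*, -0.074 to 0.0098 for *Erg* and -0.076 to 0.018 for *Gata2*. The start peaks ran from -0.073 to 0.055 for *Kdr*, -0.14 to 0.10 for *Tek* and -0.10 to 0.22 for *Erg*, the *Flt1* peak at 80.6 kb from -0.017 to 0.075 and the *Sox17* peak at -74.4 kb from -0.091 to 0.21. The cause of these changes was not tested.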
